A study of Mus musculus with 30 samples.

Results

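The antioxidant defence genes described here are Nfe2l2, which encodes the transcription factor NRF2, and 9 genes of the defence it is known for: Nqo1, Hmox1, Slc7a11, Gclc, Gclm, Gsr, Gpx3, Txnrd1 and Srxn1. They were chosen by symbol and are 10 of the 39179 gene identifiers counted, of which 37607 had a symbol. Transcripts were measured by RNA sequencing of the ventral prostate (VP) of C57BL/6 mice, a black inbred strain, in 30 libraries of 1 mouse each. All mice received isocaloric diets of normal fat content from weaning, and the groups differed in the fat source: linseed oil (LO), soybean oil (SO) or pork fat, that is lard (PF). The diets were given for 12 weeks or 32 weeks, with 5 mice in each of the 6 groups of diet and time, and the 12-week and 32-week mice were different animals. No group was a chow-fed or untreated control, so each diet was compared with the other 2. The comparisons asked whether the fat source, or a longer time on a diet, went with a different level of these transcripts.

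In unstressed cells NRF2 protein is held by KEAP1 and degraded, and electrophiles or oxidants that modify KEAP1 let NRF2 accumulate and enter the nucleus. There it pairs with small MAF proteins on antioxidant response elements and raises transcription of enzymes that make and recycle glutathione, reduce quinones, break down heme and keep thioredoxin and peroxiredoxins reduced. Much of this regulation acts on the NRF2 protein, which transcript counts do not measure.

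The antioxidant response element was looked for as its core TGACNNNGC, on both strands, in the 250 bases upstream of the transcription starts given by RefSeq on GRCm38.p6. The sequences below are shown because this core is part of the element that NRF2 is known to bind. Promoter sequences were at hand for 7 of the 10 genes, and 3 of these held the core, in Nfe2l2 itself, in Gclm, and in 1 of the 3 starts listed for Txnrd1. Of all 32851 promoter windows, 3338 (10.2%) held it. Each stretch is written 5′ to 3′ along the gene, with the core, or its reverse complement, in capitals.
Nfe2l2 (chr2:75704875-75704913, minus-strand gene, core in the gene's direction, starting 240 bases before the start): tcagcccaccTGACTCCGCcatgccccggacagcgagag
Gclm (chr3:122245403-122245451, plus-strand gene, core on the opposite strand, starting 134 bases before the start): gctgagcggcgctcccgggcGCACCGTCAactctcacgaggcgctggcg
Txnrd1 (chr10:82859094-82859142, plus-strand gene, core on the opposite strand, starting 92 bases before the start): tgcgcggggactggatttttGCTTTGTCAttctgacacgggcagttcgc
Windows of Srxn1, Slc7a11, Nqo1 and Gpx3 did not hold these letters. A match is a letter pattern and not a measured binding site, and nothing about NRF2 was read from its presence or absence.

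The libraries held between 27590631 and 41301707 read pairs counted on genes (median 33684704), and the 10 most abundant genes took 19.6% to 35.2% of them. The tissue label was checked against markers of luminal prostate epithelium (9 genes, among them Pbsn), which summed to between 107893 and 336464 CPM in the mice, where CPM are a gene's counts scaled to a common library total. The 7 seminal vesicle markers (Svs1, Svs2, Svs3a, Svs4, Svs5, Svs6 and Pate4) summed to at most 0.306 CPM in any mouse. The CPM were scaled by TMM, a correction for differences in library composition, over the 30 mice, and differences are log2 fold changes from edgeR's quasi-likelihood fit. A gene was called at a Benjamini-Hochberg adjusted p under 0.05 over all genes tested. All 10 members passed the filter on low counts in every fit. Nothing in the labels says whether mice of a group shared a litter or cage, so p-values measure the spread between these mice. In whole tissue, fewer cells of a type and less RNA per cell cannot be told apart.

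Per kilobase of exon, Gpx3, a secreted glutathione peroxidase, had by far the highest level of the 10 genes, 115 CPM per kb on average over the 30 mice. Nfe2l2 (17.9 CPM per kb) and Gclc (16.7) followed, then Gsr (11.5), Txnrd1 (10.2), Gclm (8.38) and Srxn1 (7.64), while Hmox1 (3.97), Nqo1 (0.933) and Slc7a11 (0.226) were lowest. The low end rested on few reads, with 26 to 79 read pairs per mouse for Nqo1 and 51 to 186 for Slc7a11, against 4012 to 12258 for Gpx3. Hmox1 and Slc7a11 varied most, the highest mouse being 4.46-fold and 4.29-fold above the lowest, and Gclm (1.33-fold), Txnrd1 (1.33-fold) and Nfe2l2 (1.44-fold) varied least. When the 6 groups were put in order of their means, no gap between neighbouring groups exceeded the larger of the 2 SDs in any of the 10 genes.

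**Figure D1:**
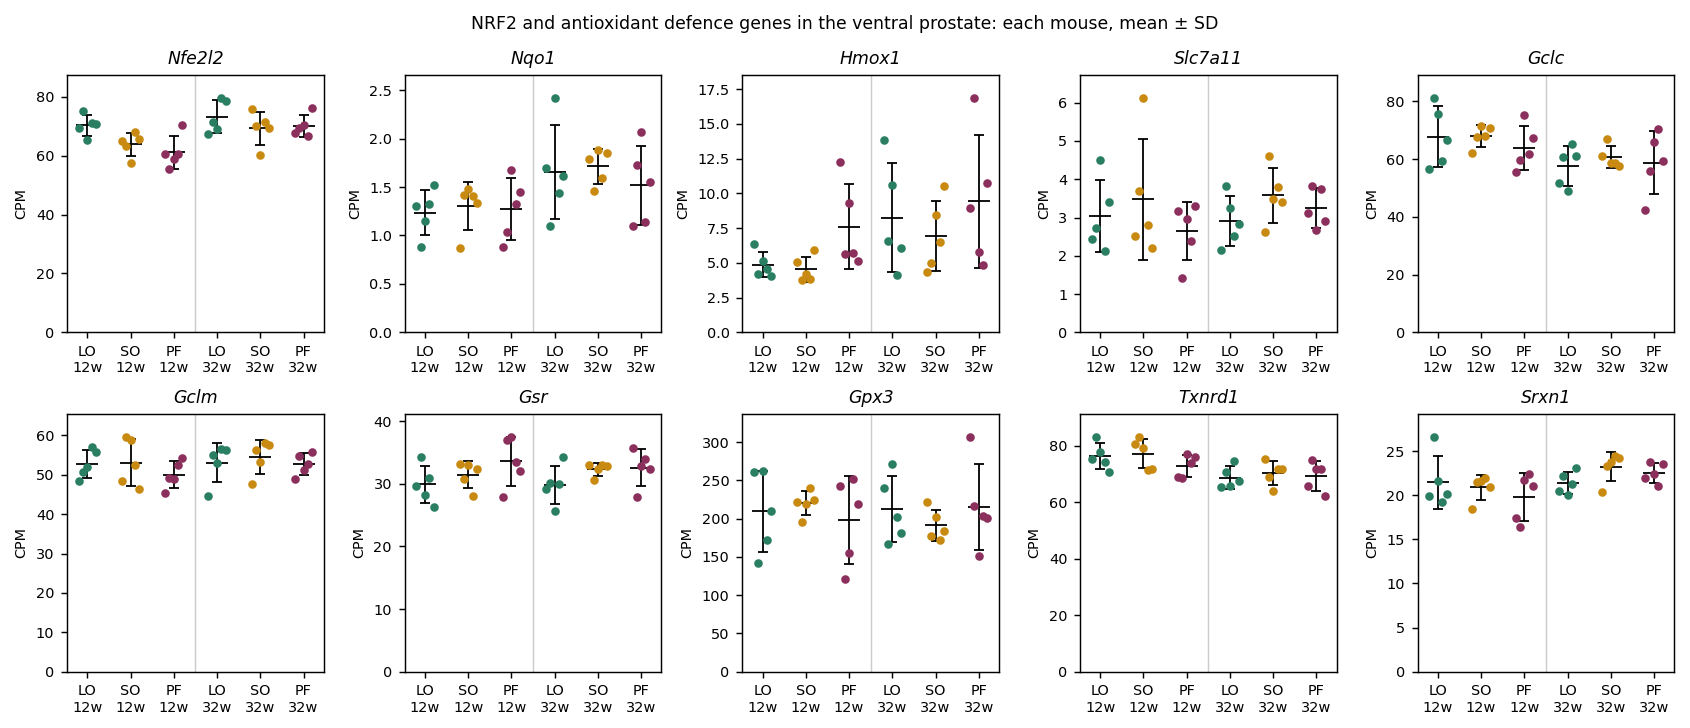
Expression of the 10 genes in CPM (vertical axis, starting at 0) in the 6 groups of diet and weeks (horizontal axis). Points are mice, 5 per group, and bars are the mean and SD; in each gene the groups overlap, and Hmox1 shows single high mice in the PF group at 12 weeks and in all diets at 32 weeks.

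No member was called in any of the 6 comparisons between diets. With edgeR's quasi-likelihood test 0 of 10 passed at 12 weeks, taking PF against SO first, then PF against LO, and last LO against SO, and 0 of 10 at 32 weeks, and the share of all genes called was 0% in each of the 6. DESeq2 also called 0 of 10 in each comparison at an adjusted p under 0.05, beside 0.887%, 0.3% and 0% of all genes at 12 weeks and 0.424%, 0.28% and 0.0234% at 32 weeks in the same order. DESeq2 was run without the filter on low counts. Its shares are therefore over more genes (25367 at 12 weeks, 25678 at 32 weeks) than those of edgeR (15873 and 16218) and are not like for like. At an unadjusted p under 0.05, 1 member stood out in PF against SO at 12 weeks (7.99% of all genes did), 2 in PF against LO at 12 weeks (9.24%), and 0 in LO against SO at 12 weeks (4.28%). At 32 weeks the count was 0 in PF against SO (10.8% of all genes), in PF against LO (8.6%) and in LO against SO (3.48%). CPM ranges of the groups overlapped for all 10 members in every comparison, while 1.13%, 0.221% and 0.384% of all genes at 12 weeks, and 0.974%, 0.432% and 0.259% at 32 weeks, lay fully higher in the diet named first. The shares lying fully lower were 0.435%, 1.37% and 0.347% at 12 weeks and 1.2%, 0.697% and 0.382% at 32 weeks. DESeq2 at an adjusted p under 0.1 called 1 member in the first of these comparisons, Hmox1 (1.53% of all genes), and 0 in the others, beside 0.583% and 0% of all genes at 12 weeks and 0.806%, 0.6% and 0.0312% at 32 weeks. Each diet group serves in 2 comparisons of its time point, which are therefore not independent.

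The signs of the members' log2 fold changes were mixed. At 12 weeks 2 of 10 were positive in PF against SO (44.8% of all genes; median −0.08, that of all genes −0.015), 3 in PF against LO (49.9%; median −0.07) and 3 in LO against SO (50.6%; median −0.014). At 32 weeks 4 were positive in PF against SO (49.3%; median −0.013), 8 in PF against LO (51.2%; median 0.038, that of all genes 0.0061) and 3 in LO against SO (49.3%; median −0.038). Apart from Hmox1 and Slc7a11, no member differed by more than 0.20 on the log2 scale in any of these comparisons.

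**Figure D2:**
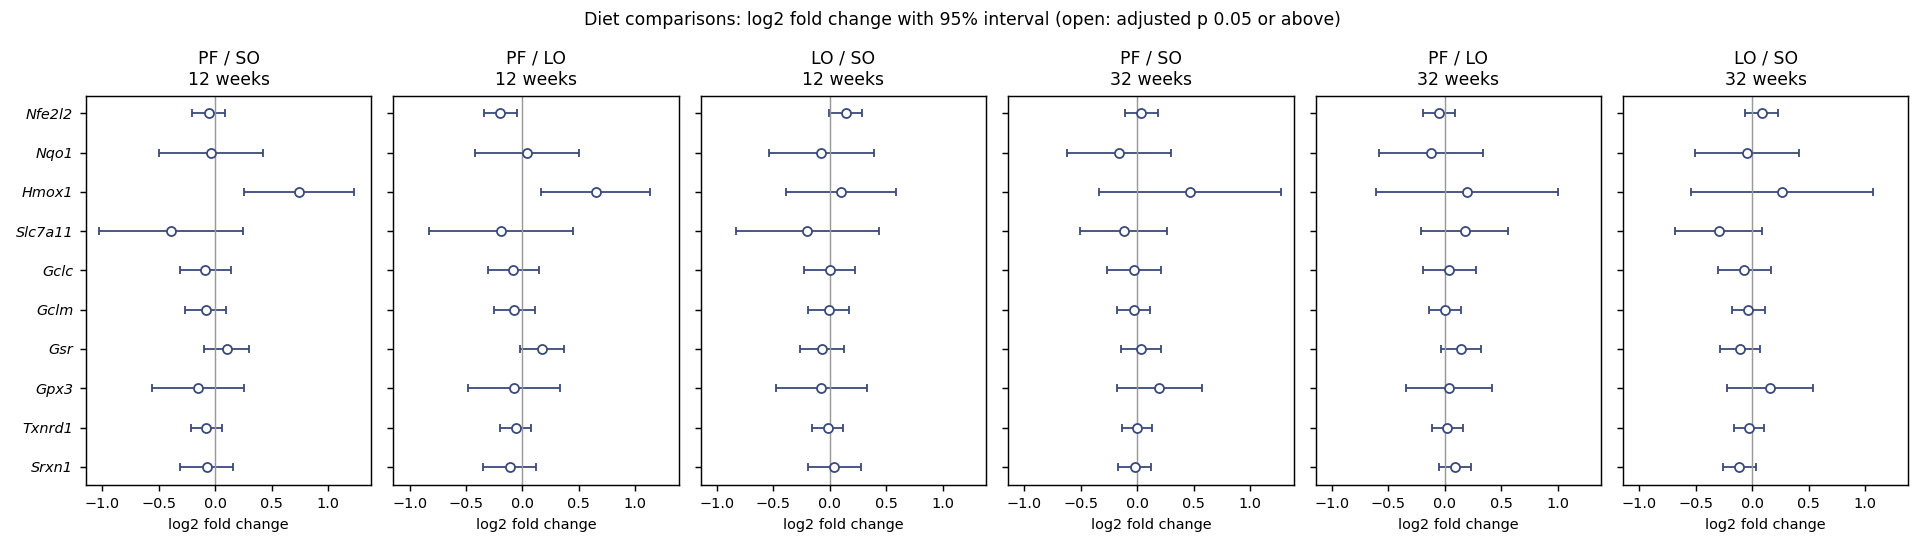
Log2 fold change (horizontal axis) of each member in the 6 diet comparisons, with its 95% interval; open circles mark an adjusted p of 0.05 or above, which applies to all. Intervals for Hmox1 lie above 0 in both PF comparisons at 12 weeks, and that of Nfe2l2 lies below 0 in PF against LO at 12 weeks.

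Nfe2l2 (ENSMUSG00000015839, GRCm38 chr2:75675513-75704641, minus strand), the regulator, had a slightly lower mean in PF than in LO mice at 12 weeks, a difference that did not pass the test. The LO mice at 12 weeks had 69.3, 75.0, 65.3, 71.0 and 70.6 CPM. The SO mice had 64.8, 63.3, 57.6, 68.1 and 65.5 CPM, and the PF mice 60.4, 55.4, 59.0, 60.5 and 70.5 CPM. In all, 4 of the PF mice lay below every LO mouse and the fifth, at 70.5 CPM, lay among them. Nfe2l2 in PF was 0.20 lower than in LO on the log2 scale (log2 fold change −0.20, SE 0.0688, 95% interval −0.34 to −0.05), with an unadjusted p of 0.0117 and an adjusted p of 0.452 by edgeR's quasi-likelihood test. Leaving out each of the 15 mice in turn kept the value between −0.26 and −0.17. The differences of PF from SO (−0.06, SE 0.0688) and of LO from SO (0.14, SE 0.0688) were smaller. At 32 weeks the means were 73.2 ± 5.54 CPM in LO, 69.3 ± 5.602 in SO and 70.1 ± 3.70 in PF mice (SD, n = 5), with differences between diets from −0.05 to 0.08 on the log2 scale.

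Hmox1 (ENSMUSG00000005413, chr8:75093621-75100589, plus strand), heme oxygenase 1, which breaks heme down to biliverdin, iron and carbon monoxide and is abundant in macrophages that clear red cells, showed the largest diet differences of the 10 genes. At 12 weeks it measured 5.03, 3.78, 4.21, 3.86 and 5.90 CPM in SO mice and 6.35, 4.23, 5.11, 4.58 and 4.07 CPM in LO mice. The PF mice measured 12.2, 5.65, 9.33, 5.71 and 5.12 CPM. Mice 1 and 3 of the PF group lay above every LO and SO mouse, and the other 3 lay within the range of the LO mice. PF exceeded SO by 0.74 on the log2 scale (SE 0.228, 95% interval 0.26 to 1.23, that is 1.68-fold), with an unadjusted p of 0.00505 and an adjusted p of 0.249 by edgeR's quasi-likelihood test. DESeq2 gave 0.74 with an adjusted p of 0.0798, which passes only a looser threshold of 0.1, as 1.53% of all genes did. Against LO the difference was 0.65 (SE 0.227, adjusted p 0.452), and LO and SO differed by 0.10 (SE 0.228). The value rested in part on PF mouse 1. Without it PF exceeded SO by 0.51 and LO by 0.42, the latter being the 1 of 15 omissions in which the unadjusted p exceeded 0.05. Without the 3 mice numbered 1, which deviated together from their groups, the differences were 0.55 (adjusted p 0.550) and 0.53 (adjusted p 0.395).

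After 32 weeks Hmox1 spread widely in every diet. LO mice measured 13.8, 6.58, 10.6, 4.11 and 6.08 CPM, SO mice 4.32, 4.998, 8.44, 6.47 and 10.5 CPM, and PF mice 8.92, 16.9, 5.79, 4.86 and 10.7 CPM. The groups overlapped over most of their range. PF differed from SO by 0.46 (95% interval −0.34 to 1.27) and from LO by 0.20 (−0.61 to 1.001), and these intervals hold both 0 and the values found at 12 weeks. Without PF mouse 2, PF differed from SO by 0.16 and from LO by −0.11.

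Macrophage markers tended to be higher in mice with more Hmox1, with exceptions, and their part in its differences was not tested. The list holds 9 genes (Adgre1, Csf1r, Cd68, Itgam, Mrc1, Cd163, C1qa, C1qb and C1qc), and its summed level ran from 107 to 144 CPM in SO, 99.1 to 201 in LO and 130 to 281 in PF mice at 12 weeks. At 32 weeks it ran from 157 to 314 CPM in SO, 127 to 466 in LO and 148 to 299.8 in PF mice. All 9 of 9 had a positive log2 fold change in PF against SO at 12 weeks (median 0.83), 8 of them at an unadjusted p under 0.05 and 0 called by edgeR. In PF against LO at 12 weeks 9 of 9 were positive (median 0.52), 4 at an unadjusted p under 0.05. Fibroblast markers (6 genes, 6 positive, median 0.39) and endothelial markers (5 genes, 5 positive, median 0.40) were also above 0 in PF against SO at 12 weeks, and none of them was called. All 6 B and plasma cell markers were positive (median 2.39, 6 at an unadjusted p under 0.05, 0 called), with sums of 20.6 to 39.6 CPM in SO and 13.8 to 473 CPM in PF mice, of which mice 2 and 3 had 389 and 473 CPM. All 7 T cell markers were positive as well (median 1.19, 5 at an unadjusted p under 0.05, 0 called), with mean sums of 3.97 CPM in SO and 9.17 CPM in PF mice. At 32 weeks 4 of 9 macrophage markers were positive in PF against SO (median −0.021), where Hmox1 gave 0.46. In PF against LO at 32 weeks 0 of 9 were positive (median −0.41), where Hmox1 gave 0.20. In LO against SO at 32 weeks 9 of 9 were positive (median 0.31), where Hmox1 gave 0.27.

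Across the 30 mice, after the mean of each group was subtracted, mice with more macrophage transcripts had more Hmox1. Pearson's r of Hmox1 with the summed macrophage markers was 0.74 (Spearman's rho 0.71), with adjusted permutation p-values of 0.00208 and 0.00247 over the 13 marker lists examined. The relation was chosen for study after Hmox1 had been seen to vary most. It was 0.70 within the 15 mice at 12 weeks (adjusted permutation p 0.215; rho 0.62, adjusted permutation p 0.455) and 0.75 within the 15 at 32 weeks (adjusted permutation p 0.0175; rho 0.775, adjusted permutation p 0.0178). Without the 2 mice farthest from the median of Hmox1, r was 0.73. Fibroblast markers (r 0.67, rho 0.64) and endothelial markers (r 0.66, rho 0.60) were related to Hmox1 in the same direction and summed luminal epithelial markers in the opposite one (r −0.62, rho −0.51). Each list was taken as its sum, and its single genes were not examined here. The luminal sum, 107893 to 336464 CPM, is a large part of a library, and the part of library composition was not tested. Adjusted permutation p-values of r were 0.00338, 0.00620 and 0.00741 for these 3 lists and 0.00721, 0.0118 and 0.0322 for rho. Within 32 weeks r was 0.758 for fibroblast and 0.80 for endothelial markers, beside 0.752 for macrophage markers (adjusted permutation p 0.0175 each). Within 12 weeks fibroblast markers gave 0.49 and endothelial markers 0.29 (adjusted permutation p 0.323 and 0.689). Without the mice numbered 1, endothelial markers gave 0.73, macrophage markers 0.71 and fibroblast markers 0.66 (adjusted permutation p 0.00897, 0.0226 and 0.0364). Without the 2 farthest mice the luminal relation was −0.47 and the endothelial one 0.53, and both then missed the threshold (adjusted permutation p 0.0858 and 0.0526), as the luminal one did without the 6 mice numbered 1 (r −0.56, adjusted permutation p 0.132). Red blood cell markers, summing to between 42.4 and 499.7 CPM in PF mice at 32 weeks against 26.9 to 143 CPM in LO and SO mice of that age, were not related to Hmox1 beyond the spread (r −0.15, rho 0.04, adjusted permutation p 0.662 and 0.909). The adjusted p for the remaining 8 lists was 0.177 or more.

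**Figure D3:**
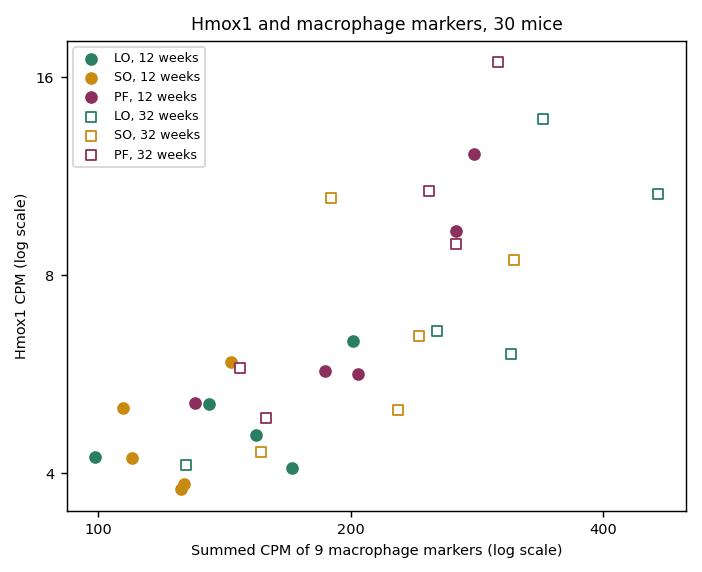
Hmox1 in CPM (vertical axis, log scale) against the summed CPM of 9 macrophage markers (horizontal axis, log scale) in 30 mice, filled circles for 12 weeks and open squares for 32 weeks, coloured by diet. Mice with high Hmox1, among them PF mouse 1 at 12 weeks (12.2 CPM), mostly lie towards high macrophage markers. At 32 weeks SO mouse 5, with 10.5 CPM of Hmox1, had 190 CPM of markers, and LO mouse 5, with 6.08 CPM, had 311 CPM. The plot shows levels, while r was taken after the group means were subtracted.

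Nqo1 (ENSMUSG00000003849, chr8:107388225-107403206, minus strand), which reduces quinones directly to hydroquinones and is often read as a marker of NRF2 activity, was low in all mice, and no diet difference exceeded its spread. At 12 weeks it measured 1.31, 0.884, 1.15, 1.33 and 1.52 CPM in LO mice, 0.872, 1.42, 1.48, 1.41 and 1.34 CPM in SO mice, and 0.880, 1.04, 1.68, 1.33 and 1.45 CPM in PF mice. At 32 weeks it measured 1.70, 1.101, 2.42, 1.44 and 1.61 CPM in LO mice, 1.78, 1.46, 1.88, 1.59 and 1.85 CPM in SO mice, and 1.099, 1.73, 2.07, 1.14 and 1.55 CPM in PF mice. The 3 diets overlapped at each time point, and all 5 SO mice at 32 weeks lay within 1.46 to 1.88 CPM. Diet differences lay between −0.16 and 0.04 on the log2 scale with SEs of 0.216 to 0.217, and the bounds of the 95% intervals reached from −0.62 to 0.50, so that differences of either sign remain possible.

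Among the genes that supply glutathione, no diet difference passed the test. Slc7a11 (ENSMUSG00000027737, chr3:49892526-50443614, minus strand), the cystine transporter that brings in the limiting amino acid, averaged 3.04 ± 0.942 CPM in LO, 3.47 ± 1.58 in SO and 2.65 ± 0.766 in PF mice at 12 weeks (SD, n = 5). At 32 weeks it averaged 2.91 ± 0.648, 3.59 ± 0.717 and 3.25 ± 0.514 CPM. Its highest mouse, SO mouse 3 at 12 weeks with 6.12 CPM, exceeded the next highest of that group at 3.69 CPM, and the lowest was PF mouse 2 with 1.43 CPM. PF against SO at 12 weeks gave −0.39 (SE 0.3003, adjusted p 0.970 by edgeR's quasi-likelihood test), and this value lay between −0.52 and −0.08 when single mice were left out, the latter without SO mouse 3. Slc7a11 overlaps 5 genes annotated as pseudogenes, antisense or unproven transcripts, and since the strand setting of the counting is not given in the sources used here, its low counts could hold reads of these.

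Gclc (ENSMUSG00000032350, chr9:77754535-77794485, plus strand), the catalytic subunit of glutamate-cysteine ligase, averaged 67.8 ± 10.5 CPM in LO, 68.0 ± 3.72 in SO and 63.9 ± 7.55 in PF mice at 12 weeks, and 57.5 ± 6.92, 60.6 ± 3.81 and 58.7 ± 10.8 CPM at 32 weeks (SD, n = 5). Gclm (ENSMUSG00000028124, chr3:122245557-122270732, plus strand), the modifier subunit of the same enzyme, stayed within a narrower band. Its means were 52.7 ± 3.54, 53.1 ± 5.96 and 50.02 ± 3.47 CPM at 12 weeks and 53.1 ± 4.91, 54.6 ± 4.28 and 52.7 ± 2.71 CPM at 32 weeks in LO, SO and PF mice. Diet differences of both subunits lay between −0.09 and 0.04 on the log2 scale in the 6 comparisons. For Gclm the bounds of the 95% intervals reached from −0.26 to 0.17. Gclm shares its locus with Gm17494 on the opposite strand and the pseudogene Gm6061.

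Gsr (ENSMUSG00000031584, chr8:33652523-33698163, plus strand), the reductase that returns oxidised glutathione to its reduced form, averaged 29.9 ± 2.99 CPM in LO, 31.4 ± 2.13 in SO and 33.6 ± 3.87 in PF mice at 12 weeks, and 29.8 ± 3.02, 32.3 ± 1.01 and 32.5 ± 2.92 CPM at 32 weeks (SD, n = 5). LO had the lowest mean at both times. PF exceeded LO by 0.17 (SE 0.0926, 95% interval −0.02 to 0.37) at 12 weeks and by 0.14 (SE 0.0833, −0.04 to 0.32) at 32 weeks, with adjusted p-values of 0.595 and 0.660 by edgeR's quasi-likelihood test. Neither value passed the test, and the mice of the time points were separate.

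Gpx3 (ENSMUSG00000018339, chr11:54902453-54910377, plus strand), which uses glutathione to reduce peroxides outside the cell, averaged 209 ± 53.4 CPM in LO, 220.3 ± 16.1 in SO and 198 ± 57.4 in PF mice at 12 weeks, and 213 ± 43.2, 191 ± 20.4 and 215 ± 56.6 CPM at 32 weeks (SD, n = 5). The SO mice were the most alike at both times, with coefficients of variation of 7.33% and 10.7%, against 20.4% to 29.0% in the LO and PF groups. A PF mouse was the lowest of all 30, mouse 2 at 12 weeks with 121 CPM, and another the highest, mouse 1 at 32 weeks with 306 CPM. Diet differences lay between −0.15 and 0.20 on the log2 scale.

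In the thioredoxin system, Txnrd1 (ENSMUSG00000020250, chr10:82833951-82897712, plus strand), thioredoxin reductase 1, and Srxn1 (ENSMUSG00000032802, chr2:152105516-152111376, plus strand), which repairs over-oxidised peroxiredoxins, passed the test in no diet comparison. Txnrd1 at 12 weeks measured 75.4, 83.1, 77.9, 74.3 and 70.7 CPM in LO mice, 80.6, 83.0, 79.4, 71.6 and 71.9 CPM in SO mice, and 69.0, 68.6, 77.1, 74.0 and 76.0 CPM in PF mice. At 32 weeks it measured 65.4, 70.9, 65.7, 74.6 and 67.5 CPM in LO mice, 75.5, 68.9, 64.0, 71.7 and 71.7 CPM in SO mice, and 65.8, 74.9, 71.9, 72.0 and 62.3 CPM in PF mice. The LO mice at 32 weeks overlapped those at 12 weeks only in their 2 highest values, and the diets overlapped throughout. Srxn1 averaged 21.5 ± 2.98, 20.9 ± 1.41 and 19.8 ± 2.72 CPM at 12 weeks and 21.4 ± 1.26, 23.2 ± 1.66 and 22.5 ± 1.12 CPM at 32 weeks in LO, SO and PF mice (SD, n = 5). For Txnrd1 the diet differences lay between −0.08 and 0.02, and for Srxn1 between −0.11 and 0.09, on the log2 scale. Txnrd1 overlaps Eid3 on the same strand and 2 genes on the opposite strand, and where they share exons read pairs may not be assigned to it alone.

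The 32-week mice were compared with the 12-week mice of the same diet in one fit of all 30 mice. No member was called in LO, SO or PF with edgeR's quasi-likelihood test, while 2.7%, 6.46% and 0.0301% of all genes were. DESeq2 called 0 of 10 in each diet as well, beside 3.97%, 5.61% and 0.195% of all genes, and at an adjusted p under 0.1 also 0, beside 6.56%, 7.82% and 0.423%. Positive values were found for 5 members in LO (47.8% of all genes; median 0.0024), 7 in SO (49.2%; median 0.044) and 7 in PF (50.7%; median 0.15, that of all genes 0.0033). At an unadjusted p under 0.05 there were 3 members in LO (20.5% of all genes), 1 in SO (19.7%) and 2 in PF (10.2%). In LO these were Hmox1 at 0.76 (SE 0.327, adjusted p 0.179), Txnrd1 at −0.15 (SE 0.0614, adjusted p 0.163) and Gclc at −0.24 (SE 0.113, adjusted p 0.230). The SO diet had Txnrd1 at −0.14 (SE 0.0614, adjusted p 0.208). In PF they were Nfe2l2 at 0.20 (SE 0.0670, adjusted p 0.341) and Srxn1 at 0.19 (SE 0.0885, adjusted p 0.475). For Hmox1 in LO the value lay between 0.52 and 0.95 when single LO mice were left out, the lowest without mouse 1 at 32 weeks, and its unadjusted p stayed under 0.05 in 7 of 10 omissions. CPM ranges overlapped in all 10 members in each diet, while 1.99% of all genes in LO, 5.13% in SO and 0.753% in PF lay fully higher at 32 weeks and 2.26%, 2.3% and 0.795% fully lower.

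Averaged over the 3 diets, 4 of the 10 members passed the test, against 19.9% of all genes. This contrast was added after the values within diets had been seen. Hmox1 rose by 0.56 on the log2 scale from 12 to 32 weeks (SE 0.188, 95% interval 0.17 to 0.95, 1.47-fold, adjusted p 0.0357 by edgeR's quasi-likelihood test) and Nqo1 by 0.35 (SE 0.123, 0.10 to 0.61, 1.28-fold, adjusted p 0.0420). Nfe2l2 rose by 0.12 (SE 0.0387, 0.05 to 0.20, 1.09-fold, adjusted p 0.0241). Txnrd1 fell by 0.12 (SE 0.0354, interval −0.19 to −0.05, adjusted p 0.0194). Hmox1, Nqo1 and Nfe2l2 had a positive value and Txnrd1 a negative one in each of the 3 diets, although Hmox1 in PF (0.31) was −0.0069 without PF mouse 2 at 32 weeks, while the changes of Nfe2l2 (1.09-fold) and Txnrd1 (0.921-fold) were small. Gclc gave −0.18 (adjusted p 0.0566, but 0.0278 with the replicate number as a block and 0.0294 without the mice numbered 1) and Srxn1 0.11 (adjusted p 0.125), while Slc7a11, Gclm, Gpx3 and Gsr lay between −0.02 and 0.10 with adjusted p-values of 0.550 and above. Of the 10 members 6 were positive (49.5% of all genes). By edgeR 3301 of 16605 genes were called in this contrast. DESeq2, run without the filter on low counts, called 4 members, beside 3679 of 26704 genes (13.8%). At an adjusted p under 0.1 DESeq2 called 5 members, beside 18.1%. Its adjusted p-values were 0.0192 for Hmox1, 0.0362 for Nqo1, 0.00981 for Nfe2l2 and 0.0111 for Txnrd1.

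Only Nfe2l2 of these 4 kept its call in all 30 omissions of a single mouse. Txnrd1 kept it in 27, Hmox1 in 19 and Nqo1 in 16, with adjusted p-values up to 0.0534, 0.0749 and 0.0808. The count of members called fell to 2 without LO mouse 2, PF mouse 2 or PF mouse 4 at 12 weeks, or LO mouse 3, PF mouse 2 or SO mouse 5 at 32 weeks, and to 1 without PF mouse 5 or SO mouse 3 at 32 weeks. Macrophage markers were also higher at 32 weeks, with 9 of 9 at an unadjusted p under 0.05 in LO (median 0.96, 0 called) and 8 of 9 in SO (median 0.89, 3 called), but 0 of 9 in PF (median 0.05). The sum of the luminal epithelial markers was lower on average at 32 weeks. Mean sums were 246085 and 148965 CPM at 12 and 32 weeks in LO, 279041 and 157518 CPM in SO, and 260686 and 243078 CPM in PF mice. The single genes were mixed, with 3 of 9 positive in LO (median −0.07, 1 called), 3 in SO (median −0.19, 1 called) and 5 in PF (median 0.017, 0 called). B and plasma cell markers had mean sums of 43.7 and 527 CPM at 12 and 32 weeks in LO (2 of 6 called), 29.9 and 258 CPM in SO (6 called) and 192 and 338 CPM in PF mice (0 called). T cell markers had 6.14 and 10.5 CPM in LO (0 of 7 called), 3.97 and 18.1 CPM in SO (7 called) and 9.17 and 10.98 CPM in PF mice (0 called). Basal epithelial markers had 91.2 and 182 CPM in LO (3 of 4 called), 94.8 and 141 CPM in SO (2 called) and 112 and 121 CPM in PF mice (0 called). The part of these cell types in the changes of the members was not tested. Age, time on the diet and any difference in the handling of the 12-week and 32-week libraries cannot be told apart.

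**Figure D4:**
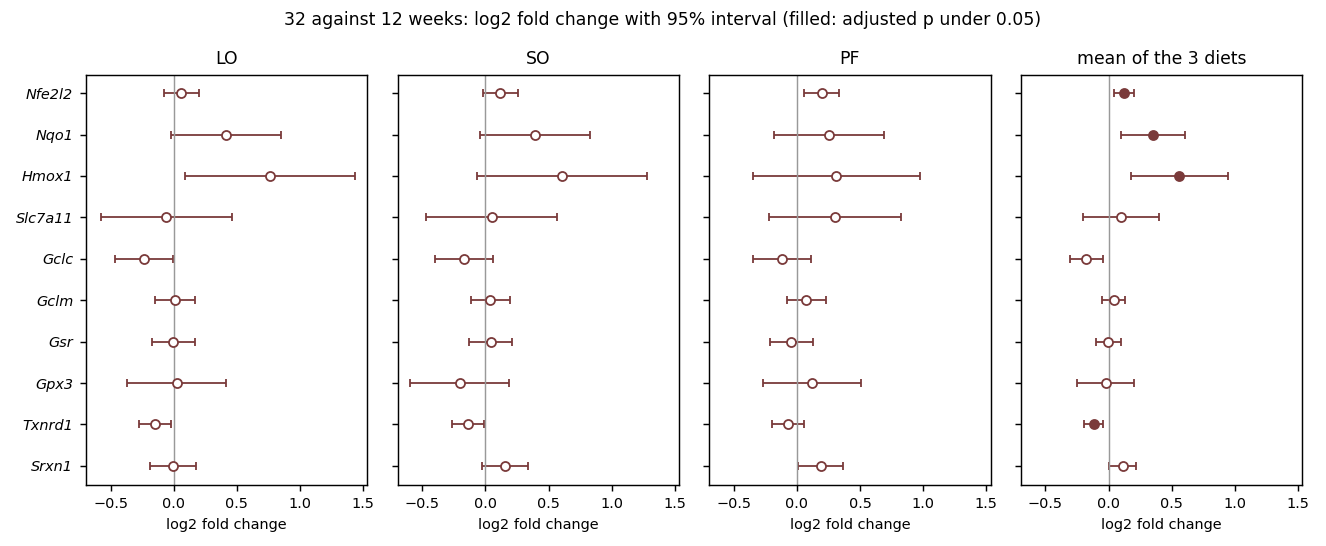
Log2 fold change (horizontal axis) from 12 to 32 weeks of each member, with its 95% interval, in each diet and averaged over the 3 diets; filled circles have an adjusted p under 0.05. In the average, Nfe2l2, Nqo1 and Hmox1 lie above 0 and Txnrd1 below, and within a single diet all circles are open.

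Whether a diet difference changed between the time points was tested as an interaction. By edgeR's quasi-likelihood test 0 of 10 members were called for PF against SO, for PF against LO or for LO against SO, with 0% of all genes called in each, and 0 members had an unadjusted p under 0.05 (9.49%, 7.79% and 3.33% of all genes did). DESeq2 called 0 members, beside 0.165%, 0.0187% and 0% of all genes, called 0 at an adjusted p under 0.1 (0.73%, 0.0861% and 0%), and gave no adjusted p for Nqo1, Hmox1 and Slc7a11 in PF against LO. Positive values were found for 7, 7 and 3 members (49.2%, 50.5% and 48.4% of all genes). For Hmox1 the excess of PF over SO was 0.30 lower at 32 than at 12 weeks (log2 value −0.30, 95% interval −1.24 to 0.64), and that of PF over LO gave −0.45 (−1.39 to 0.49). Nfe2l2 gave 0.14 (−0.06 to 0.33) for PF against LO, and Slc7a11 gave 0.36 (−0.38 to 1.09).

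Mice with more Nfe2l2 transcript did not have more of the other members' transcripts beyond the spread between mice. After group means were subtracted, Pearson's r of Nfe2l2 with the 9 other members ran from −0.35 (Hmox1, rho −0.36) to 0.26 (Srxn1, rho 0.24) over 30 mice. The smallest adjusted permutation p over the 9 relations was 0.540 for r and 0.494 for rho. Txnrd1 gave 0.25 (rho 0.21), Gclc 0.23 (rho 0.28) and Nqo1 −0.03 (rho −0.09). Within time points, r with Hmox1 was −0.22 at 12 weeks and −0.44 at 32 weeks, and r with Srxn1 was 0.36 and 0.11. Without the 2 mice farthest from the median of Nfe2l2 the value for Hmox1 was −0.46 (adjusted permutation p 0.343). Among the other members, as a description over the same 30 libraries, the strongest pairs were Gclc with Gpx3 (r −0.52), Hmox1 with Gclc (r −0.49), Gsr with Gpx3 (r −0.48) and Slc7a11 with Gclm (r 0.47).

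The genes most like each member were looked for among 16428 genes, by Pearson's r of log2 CPM over the 30 mice after group means were subtracted. Hmox1 was closest to Ctsb, a lysosomal cathepsin (r 0.92), and Lbp, the lipopolysaccharide-binding protein (r 0.89). Gclc was closest to Mapk9 (r 0.91) and Snx19 (r 0.90), Gclm to Sypl (r 0.88) and Pias2 (r 0.87), and Gpx3 to Rab34 (r 0.83) and Tmem37 (r 0.82). Gsr was nearest to Steap1 (r 0.81) and Srxn1 to Usp49 (r 0.80). For Slc7a11 the nearest were Lzts1 (r 0.79) and Sesn1 (r 0.78), and for Txnrd1 Gm26734 (r 0.77). Nqo1 reached 0.75 with Kcna1 and Nfe2l2 0.74 with Exosc1, the lowest of the 10 best matches. These are the highest of many values and are given as a description.

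The wider NRF2 network was described by 9 lists of 110 genes, the members included: regulators, glutathione synthesis and recycling, glutathione peroxidases, glutathione transferases, thioredoxin and peroxiredoxin, quinone, heme and iron, NADPH supply, detoxification and export, and superoxide and hydrogen peroxide. Of these genes 102 were tested at 12 weeks and 103 at 32 weeks, and by edgeR's quasi-likelihood test 0 were called in each of the 6 diet comparisons, beside 0% of all genes. At an unadjusted p under 0.05 there were 4 higher and 2 lower in PF against SO at 12 weeks, 6 and 3 in PF against LO, and 2 and 3 in LO against SO. At 32 weeks there were 11 and 2, 3 and 5, and 2 and 1 in the same order. The shares of all genes with such a p were 7.99%, 9.24% and 4.28% at 12 weeks and 10.8%, 8.6% and 3.48% at 32 weeks. In PF against SO at 32 weeks, 75 of 103 genes had a positive value (median 0.12), while 49.3% of all genes did (median −0.0031). Against LO at that time 69 of 103 were positive (median 0.09), where 51.2% of all genes were. LO against SO at 32 weeks had 72 of 103 positive (median 0.058), where 49.3% of all genes were. The 32-week comparisons with SO used the same SO mice and are therefore not independent. At 12 weeks 42 of 102 were positive in PF against SO (median −0.033), where 44.8% of all genes were. In PF against LO 63 were (median 0.030; 49.9% of all genes), and in LO against SO 35 (median −0.046; 50.6%). The direction in LO against SO was thus the reverse of that at 32 weeks. The smallest unadjusted p-values in PF against SO at 32 weeks were those of the glutathione transferases Gstk1 at 0.34 (SE 0.107, adjusted p 0.350) and Gstz1 at 0.36 (SE 0.127, adjusted p 0.385). Luminal epithelial markers had a positive value in 7 of 9 genes (median 0.19) in the same comparison, with summed levels of 125923 to 299031 CPM in PF mice and 145187 to 172119 CPM in SO mice, and their part in the pathway values was not tested.

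Aldh3a1, an aldehyde dehydrogenase that removes products of lipid peroxidation, had the smallest p of the network genes between PF and LO at 32 weeks. It measured 4.10 ± 0.414 CPM in PF and 6.34 ± 0.468 in LO mice (SD, n = 5), a log2 fold change of −0.62 (SE 0.122) with an adjusted p of 0.226 by edgeR's quasi-likelihood test and 0.00154 by DESeq2. Gstt1, a theta-class glutathione transferase, followed with −0.40 (SE 0.0972), an adjusted p of 0.294 by edgeR and 0.0291 by DESeq2. In this comparison DESeq2 called 0.28% of all genes. With edgeR neither gene was called in any of the 15 omissions of a single mouse. Without the mice numbered 1 their adjusted p-values by edgeR were 0.535 and 0.508. At 12 weeks the genes with the smallest unadjusted p were Ugdh (0.35, SE 0.106, adjusted p 0.253) and Ggt5 (0.78, SE 0.282, adjusted p 0.374) in PF against SO, and Gstm7 (0.37, SE 0.116, adjusted p 0.427) and Txn1 (0.24, SE 0.0801, adjusted p 0.440) in PF against LO, all by edgeR. DESeq2 gave these genes adjusted p-values of 0.110, 0.214, 0.187 and 0.238 in that order. In LO against SO they were Gstm7 (−0.44) and Maff (0.63) at 12 weeks and Aldh3a1 (0.36) and Gstm1 (0.19) at 32 weeks, with adjusted p-values of 0.999 and above.

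Between the time points a few network genes passed the test in LO and in SO mice. Aldh3a1 rose in LO mice from 2.96 ± 1.05 to 6.34 ± 0.468 CPM (SD, n = 5; 2.13-fold, adjusted p 0.0123 by edgeR's quasi-likelihood test). Gsta4, the transferase that conjugates 4-hydroxynonenal, rose from 17.1 ± 3.90 to 29.1 ± 5.39 CPM (1.69-fold, adjusted p 0.0146). Slc40a1, ferroportin, which exports iron from macrophages and other cells, rose from 7.26 ± 3.22 to 13.7 ± 2.41 CPM in LO mice (1.88-fold, adjusted p 0.0235) and from 7.22 ± 1.39 to 12.9 ± 1.63 CPM in SO mice (1.79-fold, adjusted p 0.0211). In SO mice Gpx8, a peroxidase of the endoplasmic reticulum, fell from 47.8 ± 4.29 to 35.7 ± 3.41 CPM (log2 −0.42, adjusted p 0.00952), and Abcb6, a porphyrin transporter, from 46.2 ± 7.80 to 35.6 ± 2.79 CPM (log2 −0.38, adjusted p 0.0338). That makes 3 higher and 0 lower of 103 in LO, and 1 higher and 2 lower in SO, beside 2.7% and 6.46% of all genes called. In PF mice 0 of 103 passed (0.0301% of all genes). The smallest unadjusted p there were Gsta4 at 0.56 (adjusted p 0.240) and Sod2, the mitochondrial superoxide dismutase, at 0.20 (adjusted p 0.291). At an unadjusted p under 0.05, 10 were higher and 0 lower in PF (19 and 11 in LO, 8 and 15 in SO), and DESeq2 called neither Gsta4 nor Sod2 in PF. Of all genes, 10.2% had such a p in PF, 20.5% in LO and 19.7% in SO.

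Aldh3a1 in LO and Gpx8 in SO kept their calls in all 10 omissions of a single mouse. Gsta4 in LO lost its call without LO mouse 3 at 12 weeks (adjusted p 0.0533). Slc40a1 was called in 5 of 10 omissions in LO (adjusted p up to 0.0844, lost without LO mice 2 or 3 at 12 weeks or mice 2, 3 or 5 at 32 weeks). In SO it was also called in 5 of 10 (up to 0.0751, lost without SO mice 1, 4 or 5 at 12 weeks or mice 2 or 4 at 32 weeks). Abcb6 was called in 3 of 10 (up to 0.115), losing the call without SO mice 1, 4 or 5 at 12 weeks or mice 2, 3, 4 or 5 at 32 weeks.

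In the average over the 3 diets 19 network genes rose and 12 fell of 103 from 12 to 32 weeks, members included, beside 19.9% of all genes called. Glutathione transferases held 7 of the rises and no fall among 20 tested (Gsta4, Gstt1, Mgst2, Gsto1, Gsta3, Mgst1 and Gstm5), and the quinone, heme and iron list held 4 rises and 1 fall among 11. The diets differed within the transferase list, with 15 of 20 positive in LO (median 0.20), 14 in PF (median 0.11) and 9 in SO (median −0.095). Of the 11 regulators, 1 rose, Nfe2l2, and 3 fell, Nfe2l1, Nfe2l3 and Sqstm1. The 5 with the smallest p were Gsta4 at 0.59 (SE 0.0915, adjusted p 0.000221 by edgeR's quasi-likelihood test), Slc40a1 at 0.74 (SE 0.126, adjusted p 0.000477), Aldh3a1 at 0.53 (SE 0.121, adjusted p 0.00384), Ugt1a6a, a glucuronosyltransferase, at 0.75 (SE 0.183, adjusted p 0.00548) and Gpx8 at −0.22 (SE 0.0542, adjusted p 0.00700). All 5 kept their calls in 30 of 30 omissions of a single mouse. The lists had a median of −0.02 in this contrast, where the median of all genes was −0.0022. In the interactions 0 of 103 network genes were called by edgeR (0% of all genes). The smallest unadjusted p-values there were those of the superoxide dismutases Sod2 (0.27, adjusted p 0.260) and Sod1 (0.45, adjusted p 0.341) for PF against SO, and of Aldh3a1 (−0.99, adjusted p 0.461) and Sod2 (0.22, adjusted p 0.567) for PF against LO. For LO against SO they were those of Gstm7 (0.50) and Gstm1 (0.27), with an adjusted p of 0.9998 each. At an unadjusted p under 0.05 there were 5 higher and 0 lower, 2 and 2, and 4 and 0 in these 3 interactions, beside 9.49%, 7.79% and 3.33% of all genes.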

How the data were processed

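RNA of the ventral prostate of 30 mice was sequenced as read pairs. Per the labels and the study's methods, the authors made libraries with a stranded mRNA kit from RNA of high integrity, aligned reads to GRCm38.p6 with TopHat and counted them with HTSeq; strand setting, annotation release and tool versions are not given in the sources used here. They deposited raw counts per gene for each mouse, without normalization. Alignments in no gene (6.67% to 12.2%), ambiguous ones (0.831% to 1.18%) and non-unique ones (16.0% to 20.3%) stayed out of library sizes. Symbols came from GENCODE M21.

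Low counts were removed with filterByExpr and libraries scaled by TMM. The test, two-sided, was edgeR's quasi-likelihood F test (edgeR 4.0.16, R 4.3.3), with Benjamini-Hochberg adjustment. The 3 diets of a time point shared a fit of 15873 genes (12 weeks) or 16218 genes (32 weeks), and the time and interaction contrasts used 1 fit of the 6 groups (16605 genes). SEs were derived from the F statistic. Correlations used log2 CPM (prior count 2), with 100000 permutations of mice within groups and a pseudocount of 0.5 for summed markers. DESeq2 1.42.0, run without the filter on low counts, was an alternative, and the closing section names the others. Its shares of all genes are over 25367 genes (12 weeks), 25678 genes (32 weeks) or 26704 genes (time and interaction contrasts). The fits were tested on simulated counts. No libraries agreed within sampling noise (lowest chi-square per degree of freedom 22.7 among 60 pairs of a group).

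All 10 members are named in every comparison. Of the other network genes, those called are named, at most the 5 with the smallest p, or else the 2 with the smallest unadjusted p. The names of further transferases and regulators called in the average over diets were added after their values were seen. The members, lists and this rule were chosen with earlier results of these data known. The average over diets, the correlations of Hmox1 with markers, and DESeq2 at an adjusted p under 0.1 were chosen after seeing the data.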

Additional observations from a re-analysis of the deposited data

Results flagged for a closer look

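In 2 of the 60 groups examined (10 genes in 6 groups of 5 mice), one mouse stood far from the other 4, both times SO mouse 1 at 12 weeks. Its Nqo1 level was 0.872 CPM, the next lowest being 1.34 CPM, a gap of 0.764 of the group's whole range against a critical value of 0.71. Its Srxn1 level was 18.4 CPM with the next at 21.0 CPM, a gap of 0.724 of the range. Chance flags about 1 in 20 such groups.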

How the results depend on the processing

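The count of members called was 0 in each of the 6 diet, 3 time and 3 interaction comparisons under DESeq2, RLE size factors, no filter on low counts, the other choices of mice in the fit, the replicate block and every omission of a single mouse. The exception was DESeq2 at an adjusted p under 0.1, which called 1 member (Hmox1) in PF against SO at 12 weeks. In the contrast averaged over diets, leaving out single mice gave 1 to 5 members called. Nqo1 lost its call there without the filter (0.36, adjusted p 0.0672) and without the mice numbered 1 (0.32, adjusted p 0.0687), and Gclc gained one without the mice numbered 1 (−0.17, adjusted p 0.0294). Mice of one replicate number were not paired by the labels. Their deviations correlated by 0.0559 on average at 12 weeks and 0.132 at 32 weeks (lowest −0.183 and −0.403), and 3 and 6 of 15 mice correlated best with their own number. The mice numbered 1 deviated together in every pair (lowest r 0.309 and 0.366), for a reason that was not tested. The other numbers were not examined one by one. With the replicate block, Hmox1 gave 0.68 in PF against SO at 12 weeks (adjusted p 0.352), and 5 members were called in the average over diets, Gclc being added (−0.17, adjusted p 0.0278). Depth limits Nqo1 and Slc7a11, the members with fewest counts.

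Small values changed sign, none of them called, and the cause was not tested. Without the mice numbered 1, Gclc (0.023) and Txnrd1 (0.00061) did so in LO against SO at 12 weeks, and Gclc (0.067), Gsr (−0.0078) and Txnrd1 (0.035) in PF against SO at 32 weeks. So did Gclm (−0.033) and Gpx3 (−0.087) in PF against LO and Hmox1 (−0.14) and Txnrd1 (0.016) in LO against SO at 32 weeks, Gsr with time in LO (0.014), Gpx3 in the interaction of PF against LO (−0.027), and Hmox1 (−0.16) and Txnrd1 (0.017) in that of LO against SO. In the last interaction Nqo1 was −0.0072 with the replicate block, and Txnrd1 was 0.00038 with RLE and 0.013 unfiltered. Gclm in PF against LO at 32 weeks was −0.012 with only those diets fitted and −0.010 with all 30 mice. With time in LO, Gsr was 0.0012 and Srxn1 0.0023 by DESeq2, 0.0031 and 0.0027 with RLE and 0.012 for both unfiltered, and Gsr averaged over diets was 0.0042 unfiltered. The correlation with Nfe2l2 turned for Nqo1 (0.012), Gclm (−0.015), Gsr (−0.19) and Gpx3 (0.13) within 12 weeks, and for Gsr without the mice numbered 1 (−0.0096). That of Hmox1 with markers turned for basal epithelium (−0.041), adipocyte (−0.0062) and red blood cell (0.17) within 12 weeks and seminal vesicle within 32 weeks (0.63), and for skeletal muscle without the 2 farthest mice (−0.053) and without the mice numbered 1 (−0.23). Seminal vesicle sums at 32 weeks were at most 0.028 CPM, with a median of 0 in each diet, so that value rests on very few reads.

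Leaving out single mice turned the sign of the following member values, none of them called.
For PF against SO at 12 weeks, values ran for Nqo1 from −0.15 to 0.077.
For PF against LO at 12 weeks, values ran for Nqo1 from −0.079 to 0.15 and Gpx3 from −0.18 to 0.057.
For LO against SO at 12 weeks, values ran for Nqo1 from −0.19 to 0.020, Hmox1 from −0.0095 to 0.20, Slc7a11 from −0.38 to 0.11, Gclc from −0.081 to 0.062, Gclm from −0.058 to 0.039, Gpx3 from −0.17 to 0.033, Txnrd1 from −0.055 to 0.013 and Srxn1 from −0.054 to 0.073.
For PF against SO at 32 weeks, values ran for Nfe2l2 from −0.012 to 0.073, Gclc from −0.10 to 0.060, Gsr from −0.020 to 0.087, Txnrd1 from −0.034 to 0.037 and Srxn1 from −0.064 to 0.00025.
For PF against LO at 32 weeks, values ran for Nqo1 from −0.25 to 0.056, Hmox1 from −0.11 to 0.48, Gclc from −0.032 to 0.13, Gclm from −0.045 to 0.028, Gpx3 from −0.14 to 0.14 and Txnrd1 from −0.00028 to 0.063.
For LO against SO at 32 weeks, values ran for Nqo1 from −0.22 to 0.077, Hmox1 from −0.017 to 0.46, Gclm from −0.075 to 0.015 and Txnrd1 from −0.058 to 0.0056.
For time in LO, values ran for Slc7a11 from −0.16 to 0.14, Gclm from −0.0052 to 0.081, Gsr from −0.038 to 0.072, Gpx3 from −0.068 to 0.14 and Srxn1 from −0.024 to 0.11.
For time in SO, values ran for Slc7a11 from −0.086 to 0.35, Gclm from −0.012 to 0.092 and Gsr from −0.0039 to 0.056.
For time in PF, values ran for Hmox1 from −0.0069 to 0.56, Gsr from −0.10 to 0.010 and Gpx3 from −0.027 to 0.24.
For the interaction of PF against SO, values ran for Slc7a11 from −0.037 to 0.40, Gclc from −0.0076 to 0.16, Gclm from −0.011 to 0.10 and Srxn1 from −0.013 to 0.10.
For the interaction of PF against LO, values ran for Nqo1 from −0.30 to 0.0072, Gclm from −0.00090 to 0.094, Gsr from −0.11 to 0.0049 and Gpx3 from −0.073 to 0.20.
For the interaction of LO against SO, values ran for Nqo1 from −0.15 to 0.17, Hmox1 from −0.10 to 0.38, Slc7a11 from −0.39 to 0.10, Gclc from −0.11 to 0.030, Gclm from −0.066 to 0.040, Gsr from −0.073 to 0.036 and Txnrd1 from −0.030 to 0.048.
For time averaged over diets, values ran for Gsr from −0.013 to 0.025 and Gpx3 from −0.064 to 0.026.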
